A study of Mus musculus with 12 samples.

Results

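The genes described here are 36 mouse genes of the lysosome, given as a list of symbols: hydrolases that take apart lipids, glycosaminoglycans, glycoproteins, glycogen and peptides, proteins of the lysosomal membrane, proteins that move sterols, progranulin, and the transcription factor Tfeb. Cathepsin proteases were left out of the list, apart from Ctsa, which is on the list and encodes a serine carboxypeptidase also known as the protective protein of other hydrolases. Members were found as exon probe sets annotated with exactly 1 gene symbol, that symbol being on the list. This gave 704 probe sets, of which 641 reached the median of the table in their mean signal, and all 36 genes could be measured. They were taken from 22184 genes with such a probe set in the series, of which 18007 were tested. Sorted by what they act on, 6 members are membrane proteins, 3 handle sterols, 9 break down sphingolipids, 7 break down glycosaminoglycans, 6 break down glycoproteins or glycogen, 4 are peptidases, a thioesterase or progranulin, and 1 is a regulator.

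RNA from the hippocampus, a brain region needed for memory, of 12 mice aged 14 to 15 months was hybridised to Affymetrix Mouse Exon 1.0 ST arrays, with 3 mice per genotype and an array for each. The mice came from a cross of hemizygous 5xFAD mice, kept on a mixed B6/SJL background, with eIF2α+/S51A mice on C57BL/6J. All groups thus come from these backgrounds, but the paper expects the B6/SJL mix to vary between animals. 5xFAD mice carry transgenes with familial Alzheimer's disease (AD) mutations, among them human APP with the Swedish, Florida and London mutations, driven by Thy1 sequences that act in neurons. eIF2α+/S51A mice carry 1 copy of an Eif2s1 allele whose product has alanine in place of serine 51 and cannot be phosphorylated there, and they keep 1 wild-type allele, since mice with 2 mutant alleles die soon after birth. The 4 groups were wild-type mice with neither change, 5xFAD mice, eIF2α+/S51A mice, and 5xFAD;eIF2α+/S51A mice with both. The cross was made to learn whether phosphorylation of eIF2α contributes to the disease of 5xFAD mice.

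Lysosomes are acidic organelles in which hydrolases, each with its own substrate bond, degrade material taken up from outside the cell or delivered by autophagy. The loss of a single hydrolase, activator or membrane protein lets its substrate pile up and causes a storage disease that in many cases damages the brain. In tissue with amyloid plaques, microglia, the resident phagocytes of the brain, surround the deposits and are rich in lysosomes, and swollen nerve endings near plaques also fill with lysosome-like vesicles. Many lysosomal genes have in their promoters the E-box CACGTG, within the longer CLEAR element that TFEB binds.

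The deposited values are log2 signals, and a difference of 1 is a 2-fold change. The medians of the arrays lay between 5.39 and 5.45, and the correlation of any 2 arrays over genes between 0.962 and 0.989. Thy1, whose sequences drive the transgenes, read 10.04 to 10.42 in the 6 mice without them and 10.97 to 11.34 in the 6 mice with them. The probe sets of App measure the mouse gene, and those of Eif2s1 do not separate the alleles, so neither checks a label. Each group held 1 mouse with a high Xist signal. Choroid plexus markers, from a tissue next to the hippocampus, differed widely within groups, with Ttr, its most abundant transcript, between 9.72 and 13.38.

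In 5xFAD relative to wild-type mice, 6 of the 36 members were higher and none was lower, where a gene is called if its adjusted p was under 0.02 and its change above 1.6-fold. They were Laptm5, Gusb, Man2b1, Hexa, Grn and Lgmn, with 1.63-fold to 2.82-fold more signal. The 6 calls are 16.7% of the members, whereas 0.961% of all genes tested, 173 of 18007, were called higher and 0.00555% lower. In 5xFAD;eIF2α+/S51A relative to eIF2α+/S51A mice, the same 6 members were called higher and none lower, against 0.972% and 0.00555% of all genes. Over both comparisons together, 6 mice with the transgenes against 6 without, these 6 were again the members called, all of them higher, against 1.21% of all genes higher and 0% lower. The first 2 comparisons have no mouse in common, but both took the spread between mice from all 12 arrays. With only the arrays compared in the fit, 5 members were called in the first (Lgmn lost its call), against 126 of 18007 genes. In the second, 4 were called (Hexa and Lgmn lost their calls), against 160 of 18007 genes. In bulk tissue, more cells of a type and more RNA per cell cannot be told apart, so a higher signal here is a higher share of hippocampal RNA. Microglia markers were higher in the same mice, with medians of 0.84 and 0.78 in the 2 comparisons.

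Below the fold threshold, more members passed the test. Ctsa, Npc2, Naglu and Cln3 also had an adjusted p under 0.02 in 5xFAD relative to wild-type mice, which made 10 of 36 members, against 1.24% of all genes that passed at any fold in this direction. In the mice with the S51A allele, Npc2 and Ctsa joined the 6 called members, which made 8 of 36, against 1.26% of all genes. With 6 mice a side, Tpp1 was added to the 10, which made 11 of 36, against 2.67% of all genes. No member passed at any fold on the lower side, where 0.0111%, 0.0111% and 0.05% of all genes did. At an adjusted p under 0.05 and any fold there were 10, 8 and 12 members on the higher side, against 1.72%, 1.73% and 3.49% of all genes. At an unadjusted p under 0.05 there were 20, 17 and 22 members on the higher side, against 6.76%, 6.7% and 9.13% of all genes, and none on the lower, against 1.21%, 2.83% and 3%.

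Most of the list lay on the higher side. All 36 members had a log2 difference above 0 in 5xFAD relative to wild-type mice, as had 58.1% of all genes, with a median of 0.29 over the members and 0.02 over all genes. In 5xFAD;eIF2α+/S51A relative to eIF2α+/S51A mice, 32 of 36 were above 0, as were 50% of all genes, with medians of 0.19 and 0.00. The 3 mice of the transgenic group all lay above the 3 of the other group for 21 members in the first comparison, against 10.9% of all genes, and for 16 in the second, against 8.44%. All 6 transgenic mice lay above all 6 others for 14 members, against 3.57% of all genes, and 35 members had a difference above 0 over the 12 mice, as had 53.9% of all genes. No member had all transgenic mice below the others in these comparisons, as 3.34%, 4.28% and 0.211% of all genes did. The members were not a uniform block, however, since the quartiles of their differences in the first comparison were 0.16 and 0.51, while Laptm5 reached 1.50 and Ids 0.03.

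**Figure D1:**
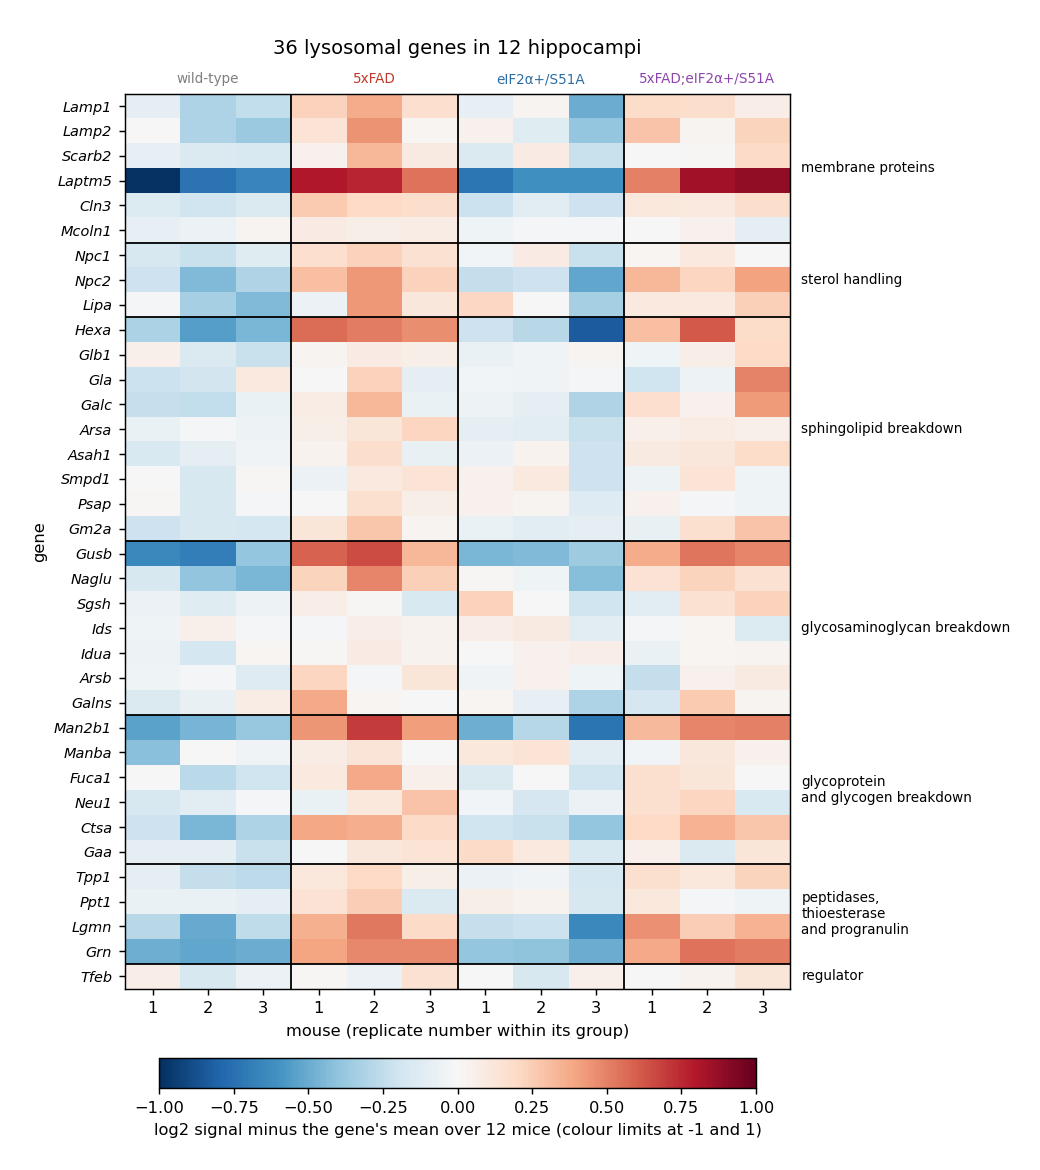
Log2 signal of each member (rows, grouped by what it acts on) in each of the 12 mice (columns, grouped by genotype), shown as the difference from the gene's mean over the 12 mice, with the colour scale limited at -1 and 1. The 6 called members (Laptm5, Hexa, Gusb, Man2b1, Lgmn and Grn) are blue in the 6 mice without the transgenes and red in the 6 mice with them, and the third eIF2α+/S51A mouse is the lowest of its group for 26 of the 36 genes.

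The promoters were read for the E-box CACGTG, because many members lay higher together. RefSeq promoter windows of the build GRCm38.p6, from 250 bases before to 50 bases after an annotated start, were at hand for 33 of the 36 members (39 windows); Asah1, Galns and Npc1 were not among them. CACGTG, which reads the same on both strands, occurred in at least 1 window of 11 of the 33 members (33.3%) and of 8.09% of 27025 genes with a window. The longer TCACGTGA, also the same on both strands and always holding a CACGTG, occurred in 4 of the 33 members (12.1%), which were Cln3, Mcoln1, Gla and Ctsa, and in 1.12% of all genes. Of the 6 called members, 1 (Lgmn) held CACGTG and none held TCACGTGA, and of the 27 others 10 and 4 did. Most called members lacked the motif in these windows, as did most of the 27025 genes. A match describes the letters of a window and is not a site of binding, and control of the members by TFEB was not tested.

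Stretches around the sites are shown for the 5 members with more than 1 E-box and for Naglu and Lgmn, which held 1 and passed an adjusted p of 0.02. They run 5′ to 3′ on the strand of the gene, with up to 20 bases on each side, and end before the start, with CACGTG or TCACGTGA in capitals. The stretch of Ctsa holds 1 of its 2 TCACGTGA sites, since the other lies after the start, with its CACGTG from position 6. Lamp1 was the member with most sites, 4 in a row, whose first bases lay from position -61 to position -15 from the start.
Lamp1, chr8:13159080-13159160, plus strand: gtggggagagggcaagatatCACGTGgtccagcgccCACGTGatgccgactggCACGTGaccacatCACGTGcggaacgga
Mcoln1, chr8:3500428-3500499, plus strand: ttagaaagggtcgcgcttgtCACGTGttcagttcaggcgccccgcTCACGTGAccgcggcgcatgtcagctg
Cln3, chr7:126583332-126583405, minus strand: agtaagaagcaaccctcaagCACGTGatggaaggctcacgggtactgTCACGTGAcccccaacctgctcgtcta
Gla, chrX:134601174-134601252, minus strand: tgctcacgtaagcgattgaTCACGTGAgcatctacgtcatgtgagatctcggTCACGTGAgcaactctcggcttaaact
Ctsa, chr2:164833741-164833772, plus strand: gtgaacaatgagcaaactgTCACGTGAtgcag
Naglu, chr11:101070001-101070046, plus strand: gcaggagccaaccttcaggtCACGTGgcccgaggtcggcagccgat
Lgmn, chr12:102439116-102439161, minus strand: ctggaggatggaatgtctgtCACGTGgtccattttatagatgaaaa

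Among the membrane proteins, Laptm5 rose most, and Mcoln1, which has 2 of the E-boxes shown above, had the smallest difference. Laptm5 is a lysosomal membrane protein of immune cells. Its log2 signal was 8.92, 9.17 and 9.25 in the wild-type mice, 10.71, 10.67 and 10.46 in the 5xFAD mice, 9.19, 9.29 and 9.29 in the eIF2α+/S51A mice, and 10.42, 10.75 and 10.80 in the 5xFAD;eIF2α+/S51A mice. The transgenic mice formed a group of their own, with no overlap, and their 2 genotypes overlapped each other. The transgenes raised Laptm5 by 1.50 ± 0.12 (log2, SE; 2.82-fold; adjusted p = 2.36e-05, limma) on the wild-type background and by 1.40 ± 0.12 (2.63-fold; adjusted p = 4.5e-05) in mice with the S51A allele.

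Cln3, the membrane protein missing in juvenile Batten disease, moved little but evenly. It read 8.29, 8.23 and 8.28 in wild-type mice, 8.69, 8.62 and 8.60 in 5xFAD mice, 8.21, 8.31 and 8.22 in eIF2α+/S51A mice and 8.53, 8.53 and 8.60 in 5xFAD;eIF2α+/S51A mice. With SDs of 0.03 to 0.05 in the 4 groups (n = 3 each), a difference of 0.37 passed an adjusted p of 0.02 in 5xFAD relative to wild-type mice (adjusted p = 0.0167, limma) without reaching 1.6-fold, and a difference of 0.31 in the mice with the allele did not (adjusted p = 0.0506). Lamp1 and Lamp2, the main glycoproteins of the lysosomal membrane, differed by 0.47 and 0.43 and then by 0.33 and 0.33, with adjusted p from 0.102 to 0.484, although Lamp1 was higher in all 6 transgenic mice than in the 6 others. With 6 mice a side, Lamp1 passed an adjusted p of 0.05 but not of 0.02 (limma). Scarb2, which carries glucocerebrosidase to the lysosome, differed by 0.28 and 0.16, and Mcoln1, a cation channel of the lysosomal membrane, by 0.11 and 0.00; neither passed in any comparison.

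Among the 3 sterol genes, Npc2, the soluble protein that hands cholesterol to NPC1, had the smallest p. It read 7.82, 7.59 and 7.72 in wild-type mice, 8.32, 8.46 and 8.26 in 5xFAD mice, 7.79, 7.82 and 7.51 in eIF2α+/S51A mice and 8.36, 8.24 and 8.43 in 5xFAD;eIF2α+/S51A mice. The transgenic mice again lay above all others without overlap. The difference was 0.64 ± 0.10 in both comparisons (1.56-fold; adjusted p = 0.00563 and 0.00558, limma), just under the fold threshold of 0.68 on the log2 scale. With the median of its probe sets as gene value, the differences of Npc2 fell to 0.35 and 0.14 (adjusted p = 0.386 and 0.885). Npc1, the membrane protein that exports cholesterol, differed by 0.35 and 0.09, and Lipa, the acid lipase that frees cholesterol from its esters, by 0.43 and 0.19, with adjusted p of 0.07 or more.

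Hexa was the member of the sphingolipid class that moved, while the enzymes of most other steps did not pass the test. Hexa encodes the alpha subunit of beta-hexosaminidase, which trims the ganglioside GM2. It read 8.01, 7.78 and 7.87 in wild-type mice, 8.89, 8.84 and 8.79 in 5xFAD mice, 8.12, 8.05 and 7.49 in eIF2α+/S51A mice and 8.63, 8.94 and 8.51 in 5xFAD;eIF2α+/S51A mice. The lowest transgenic mouse was above the highest other mouse, and the third eIF2α+/S51A mouse was the lowest of all 12. Hexa rose by 0.95 ± 0.16 (1.94-fold; adjusted p = 0.00536, limma) and by 0.80 ± 0.16 (1.74-fold; adjusted p = 0.0173). In 5xFAD relative to wild-type mice the call was lost without any 1 of the 3 5xFAD mice or without wild-type mouse 2 or 3 (adjusted p from 0.0208 to 0.036), and in the mice with the allele it was lost without any 1 of 11 mice, all but eIF2α+/S51A mouse 1 (adjusted p from 0.0223 to 0.0736). With 6 mice a side it was kept without any 1 mouse, with a difference from 0.78 to 0.94.

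The other 8 sphingolipid genes had smaller differences, from 0.11 to 0.32 and from 0.01 to 0.36. Gm2a, the activator that presents GM2 to the same enzyme, differed by 0.32 and 0.21. Galc, which degrades the galactosylceramide of myelin, differed by 0.29 and 0.36, and Arsa, which takes the sulfate from sulfatide, by 0.18 and 0.20. Asah1, acid ceramidase, differed by 0.14 and 0.21, Glb1, beta-galactosidase, by 0.16 and 0.10, Smpd1, acid sphingomyelinase, by 0.11 and 0.04, and Psap, the precursor of the saposins, by 0.13 and 0.01. None had an adjusted p under 0.05 in a transgene comparison.

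Gusb was the called member of the glycosaminoglycan class. It encodes beta-glucuronidase, which removes glucuronic acid from the chains. Its signal was 6.73, 6.68 and 6.99 in wild-type mice, 7.96, 8.03 and 7.71 in 5xFAD mice, 6.91, 6.93 and 7.02 in eIF2α+/S51A mice and 7.74, 7.90 and 7.86 in 5xFAD;eIF2α+/S51A mice. The transgenic mice again lay above all others. The transgenes raised Gusb by 1.10 ± 0.11 (2.14-fold; adjusted p = 0.00012, limma) and by 0.88 ± 0.11 (1.84-fold; adjusted p = 0.000721). Naglu, which removes N-acetylglucosamine from heparan sulfate, read 6.65, 6.42 and 6.36 in wild-type mice, 7.03, 7.30 and 7.05 in 5xFAD mice, 6.82, 6.77 and 6.39 in eIF2α+/S51A mice and 6.96, 7.03 and 6.96 in 5xFAD;eIF2α+/S51A mice. Its transgenic mice were above the others, most clearly so on the wild-type background, with differences of 0.65 (adjusted p = 0.0167) and 0.32 (adjusted p = 0.389).

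The other 5 enzymes of this class had differences from 0.03 to 0.18 and from -0.06 to 0.17, and none passed. Sgsh, Ids and Idua, which with Naglu act on heparan sulfate, differed by 0.05, 0.03 and 0.11 and then by 0.08, -0.06 and -0.04. Arsb and Galns, sulfatases of dermatan and keratan sulfate, differed by 0.17 and 0.18 and then by -0.02 and 0.17. Ids, which lies on the X chromosome, read 11.35, 11.45 and 11.37 in wild-type mice, 11.38, 11.46 and 11.43 in 5xFAD mice, 11.46, 11.48 and 11.29 in eIF2α+/S51A mice and 11.38, 11.41 and 11.26 in 5xFAD;eIF2α+/S51A mice, with groups that overlapped throughout.

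Man2b1, the lysosomal alpha-mannosidase, was called among the enzymes of glycoproteins and glycogen. It read 7.96, 8.03 and 8.12 in wild-type mice, 8.93, 9.20 and 8.91 in 5xFAD mice, 8.01, 8.21 and 7.76 in eIF2α+/S51A mice and 8.82, 8.99 and 9.00 in 5xFAD;eIF2α+/S51A mice. All transgenic mice were above all others. The difference was 0.98 ± 0.12 (1.97-fold; adjusted p = 0.000621, limma) and 0.94 ± 0.12 (1.92-fold; adjusted p = 0.000971). Ctsa, whose product holds beta-galactosidase and the sialidase Neu1 in a stable complex, read 10.51, 10.26 and 10.41 in wild-type mice, 11.10, 11.08 and 10.91 in 5xFAD mice, 10.52, 10.49 and 10.33 in eIF2α+/S51A mice and 10.92, 11.07 and 11.00 in 5xFAD;eIF2α+/S51A mice. It differed by 0.64 (1.55-fold; adjusted p = 0.00283) and 0.55 (1.46-fold; adjusted p = 0.00793), and its 6 transgenic mice lay above the 6 others. Its 2 partners of that complex did not pass: Neu1 differed by 0.20 and 0.16 and Glb1 as given above. Fuca1, the alpha-fucosidase, differed by 0.33 and 0.21, Manba, the beta-mannosidase, by 0.22 and 0.00, and Gaa, the enzyme of lysosomal glycogen, by 0.22 and -0.04.

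Of the peptidases, thioesterase and progranulin, Grn and Lgmn were called and Tpp1 and Ppt1 were not. Grn encodes progranulin, a secreted protein that lysosomes cut into granulins. It had the smallest standard error of the called members, and read 8.84, 8.81 and 8.83 in wild-type mice, 9.73, 9.81 and 9.81 in 5xFAD mice, 8.95, 8.93 and 8.83 in eIF2α+/S51A mice and 9.71, 9.87 and 9.84 in 5xFAD;eIF2α+/S51A mice. The 2 sets of mice were far apart, and Grn had the smallest p of all members in both comparisons. It rose by 0.95 ± 0.08 (1.93-fold; adjusted p = 2.36e-05, limma) and by 0.90 ± 0.08 (1.87-fold; adjusted p = 3.45e-05).

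Lgmn encodes legumain, a peptidase that cuts after asparagine and processes several cathepsins. It read 10.14, 9.92 and 10.17 in wild-type mice, 10.78, 10.95 and 10.61 in 5xFAD mice, 10.19, 10.20 and 9.78 in eIF2α+/S51A mice and 10.88, 10.66 and 10.76 in 5xFAD;eIF2α+/S51A mice. All transgenic mice lay above all others, while the 2 genotypes on either side overlapped each other. Its differences of 0.70 ± 0.13 (1.63-fold; adjusted p = 0.0139, limma) and 0.71 ± 0.13 (1.64-fold; adjusted p = 0.0125) were just above the fold threshold. The call in 5xFAD relative to wild-type mice was lost without any 1 wild-type mouse, without any 1 5xFAD;eIF2α+/S51A mouse and without 5xFAD mouse 1 or 2 (adjusted p from 0.02 to 0.0866). The call in the mice with the allele was lost without any 1 5xFAD;eIF2α+/S51A mouse, without eIF2α+/S51A mouse 1 or 3 and without 5xFAD mouse 1 (adjusted p from 0.0227 to 0.0654). With 6 mice a side, it fell under the fold threshold without 5xFAD mouse 2, eIF2α+/S51A mouse 3 or wild-type mouse 2, with differences of 0.64 to 0.67. Tpp1, the tripeptidyl peptidase missing in a late infantile neuronal ceroid lipofuscinosis, differed by 0.31 and 0.25, and Ppt1, the palmitoyl thioesterase missing in the infantile form, by 0.16 and 0.04.

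**Figure D2:**
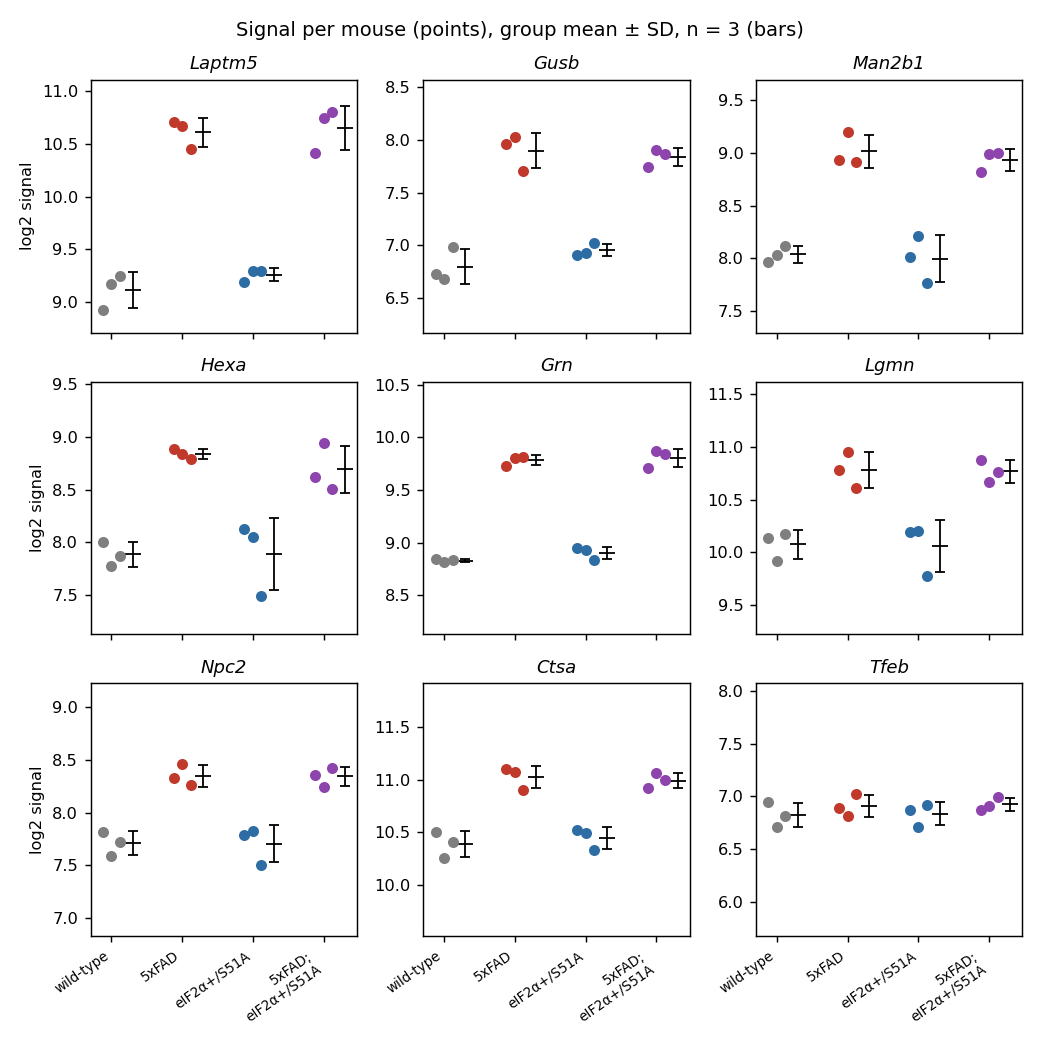
Log2 signal (vertical axis, the same span in each panel) of the 6 called members, of Npc2 and Ctsa, which passed the adjusted p but not the fold, and of Tfeb, in each mouse (points) by genotype, with the group mean ± SD (n = 3). All 6 transgenic mice lie above the 6 others in every panel apart from that of Tfeb, where the groups overlap.

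Tfeb, which encodes a transcription factor of lysosomal genes, passed no test. It read 6.94, 6.71 and 6.81 in wild-type mice, 6.89, 6.81 and 7.02 in 5xFAD mice, 6.87, 6.71 and 6.92 in eIF2α+/S51A mice and 6.88, 6.91 and 6.99 in 5xFAD;eIF2α+/S51A mice, so all groups overlapped. Its differences were 0.09 ± 0.09 (95% interval from -0.11 to 0.29; adjusted p = 1.0, limma) and 0.09 ± 0.09 (from -0.11 to 0.29; adjusted p = 0.851). An array measures the transcript of Tfeb and not where its protein is in the cell. Mitf, Tfe3 and Tfec, the other factors of its family, gave 0 calls of 3 tested in both transgene comparisons.

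The 2 other X-linked members were read in the light of Xist, which was high in 1 mouse of each group. Lamp2 was 9.52, 9.21 and 9.14 in wild-type mice, 9.65, 9.96 and 9.53 in 5xFAD mice, 9.55, 9.39 and 9.12 in eIF2α+/S51A mice and 9.79, 9.54 and 9.73 in 5xFAD;eIF2α+/S51A mice, and the groups with and without the transgenes overlapped over the 12 mice. Gla, alpha-galactosidase A, was 7.83, 7.86 and 8.14 in wild-type mice, 8.05, 8.28 and 7.95 in 5xFAD mice, 8.02, 8.01 and 8.02 in eIF2α+/S51A mice and 7.85, 7.99 and 8.54 in 5xFAD;eIF2α+/S51A mice. It differed by 0.15 ± 0.16 and 0.11 ± 0.16, within the spread of the mice. With Xist as a covariate the members called were the same in 5xFAD relative to wild-type mice and with 6 mice a side, while Hexa lost its call in the mice with the S51A allele.

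The mean of the members in each mouse, as the average difference of each gene from its own mean over 12 mice, was -0.18, -0.24 and -0.18 in wild-type mice, 0.17, 0.27 and 0.13 in 5xFAD mice, -0.08, -0.08 and -0.26 in eIF2α+/S51A mice and 0.10, 0.17 and 0.19 in 5xFAD;eIF2α+/S51A mice. The mice with the transgenes were all above the mice without them, by at least 0.16 when any 1 member was left out, Laptm5 being the member that gave this smallest gap. The same held for 6 of the 7 classes, with Tfeb as the exception, and the gap was narrowest for the glycosaminoglycan enzymes, where the first 5xFAD;eIF2α+/S51A mouse (-0.01) came next to the first eIF2α+/S51A mouse (-0.03). These means describe the list and were not tested.

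Within groups, single mice stood out for much of the list. The third eIF2α+/S51A mouse was the lowest of its 3 for 26 of 36 members, and for 51.7% of all genes. The second 5xFAD mouse was the highest of its 3 for 22 members, and for 42.2% of all genes, and the third 5xFAD mouse the lowest for 21 members, and for 29.1% of all genes. In 5xFAD relative to wild-type mice, 4 members were called without 5xFAD mouse 1 or 2 or wild-type mouse 2 or 3. In the mice with the allele, 4 were called without 5xFAD mouse 1, 5xFAD;eIF2α+/S51A mouse 1 or 3, or eIF2α+/S51A mouse 3. In each of these cases Laptm5, Gusb, Man2b1 and Grn kept their call and Hexa and Lgmn lost it.

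**Figure D3:**
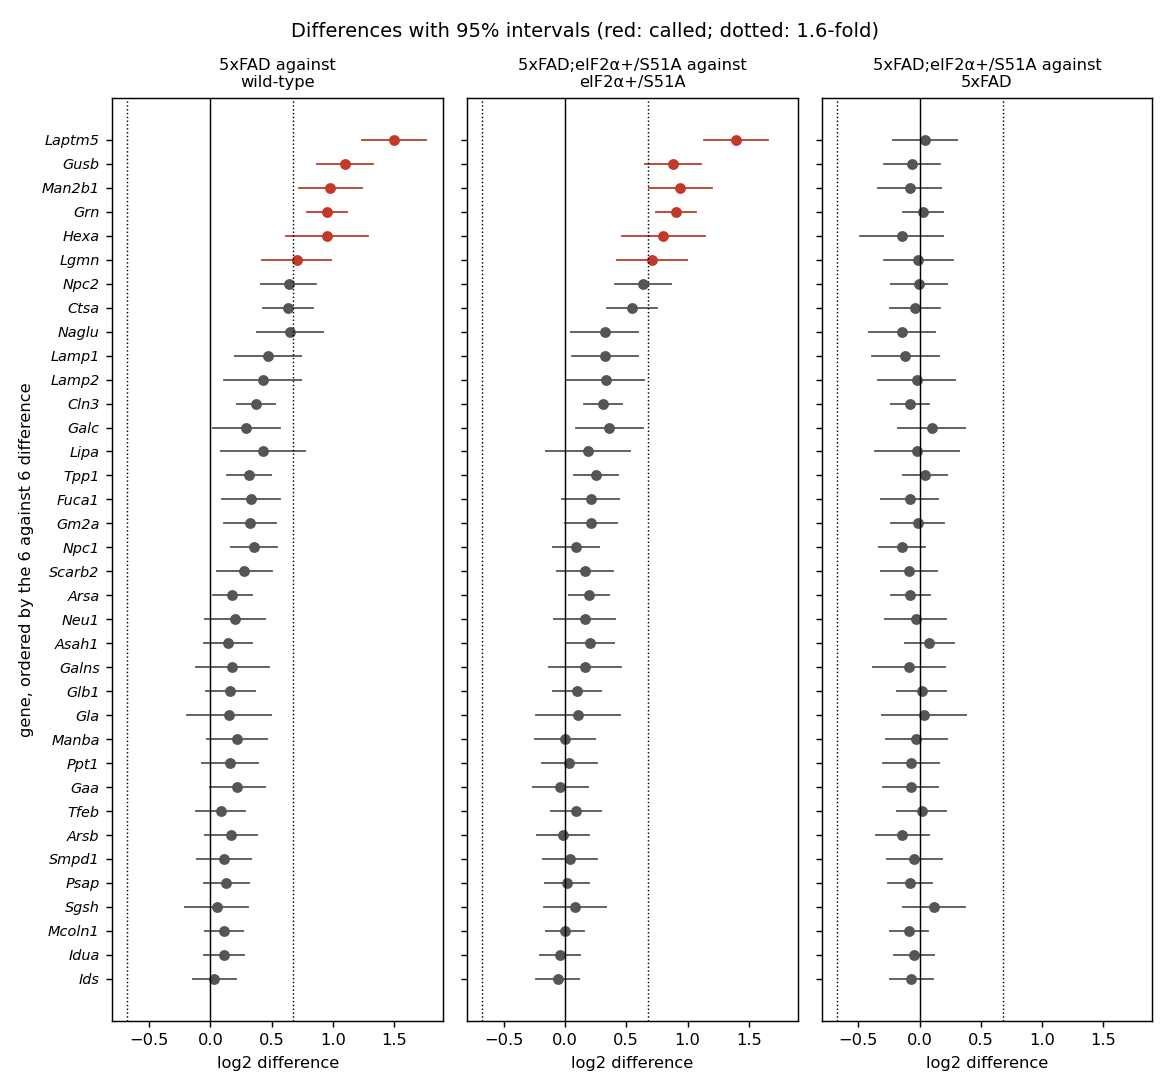
Log2 difference of each member with its 95% interval in 5xFAD relative to wild-type mice, in 5xFAD;eIF2α+/S51A relative to eIF2α+/S51A mice and in 5xFAD;eIF2α+/S51A against 5xFAD mice (limma over 12 arrays); called members are red and dotted lines mark 1.6-fold. The 6 called members head both transgene panels, with differences from 0.70 to 1.50, and in the third panel every interval holds 0 and stays inside 1.6-fold.

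The S51A allele was asked about by comparing 5xFAD;eIF2α+/S51A with 5xFAD mice. No member was called in either direction, nor was any gene of the series (0%). At an unadjusted p under 0.05 there was no member on either side, against 1.48% of all genes on the higher and 0.966% on the lower side (limma). The median difference was -0.05 over the members and -0.02 over all genes, with 27 of 36 members below 0, as were 57.3% of all genes. The 95% intervals of all 36 members included 0 and lay within 1.6-fold in both directions, and the bound farthest from 0 was 0.48 on the log2 scale. For the 6 called members the differences were 0.04 for Laptm5, -0.06 for Gusb, -0.08 for Man2b1, -0.15 for Hexa, 0.02 for Grn and -0.01 for Lgmn. Their intervals ran from -0.22 to 0.30 for Laptm5, from -0.48 to 0.19 for Hexa and from -0.14 to 0.19 for Grn.

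The members with the smallest p in that comparison were Npc1, Arsb and Mcoln1. Npc1 was 9.13, 9.19 and 9.12 in 5xFAD mice and 8.98, 9.06 and 8.96 in 5xFAD;eIF2α+/S51A mice, which did not overlap, and its difference was -0.14 ± 0.09 (adjusted p = 1.0, limma, as for every member here). Arsb was 10.13, 9.90 and 10.04 against 9.68, 9.96 and 10.01, with overlap, and differed by -0.14 ± 0.10. Mcoln1 was 9.59, 9.57 and 9.59 against 9.52, 9.55 and 9.42, without overlap, and differed by -0.09 ± 0.07. Groups that did not overlap were found for 3 members on the lower side, these being Npc1, Mcoln1 and Naglu, against 4.64% of all genes, and for none on the higher side, against 2.79%.

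In eIF2α+/S51A mice compared with wild-type mice no member was called, and neither was any gene (0%). At an unadjusted p under 0.05 there was no member, against 1.23% of all genes on the higher and 0.977% on the lower side (limma). The median difference was 0.04 over the members and 0.01 over all genes, with 30 of 36 members above 0, as were 53.8% of all genes. Gaa had the smallest p. It read 10.52, 10.52 and 10.39 in wild-type mice and 10.81, 10.71 and 10.47 in eIF2α+/S51A mice, which overlapped, a difference of 0.19 ± 0.10 (adjusted p = 1.0, limma, as for every member here). Manba read 7.18, 7.60 and 7.56 against 7.70, 7.73 and 7.48 and differed by 0.19 ± 0.11, the first wild-type mouse being the low one. Naglu, with the values given above, differed by 0.18 ± 0.12. The groups did not overlap for Gm2a, which was higher with the allele, against 3.95% of all genes, and for Arsa, which was lower, against 2.45%. With array weights, which give arrays with larger residuals less influence, 75 genes of the series were called in this comparison, none of them a member. Gaa and Naglu passed the adjusted p of 0.02 there (adjusted p = 0.0175 and 0.0127, limma), with differences of 0.29 and 0.37 that lay under 1.6-fold.

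Whether the transgenes acted differently with and without the allele was tested as an interaction, the transgene difference in mice with the allele minus that in mice without it. No member was called, nor any gene (0%), and the unadjusted p of every member was above 0.05, against values under it for 1.43% of all genes on the higher and 0.883% on the lower side (limma). The transgene difference was smaller in the mice with the allele for 30 of 36 members, as it was for 58.6% of all genes, with a median interaction of -0.09 over the members and -0.03 over all genes. The smallest p belonged to Npc1, whose transgene difference was 0.35 without and 0.09 with the allele (interaction -0.26 ± 0.12; adjusted p = 1.0, limma, as for every member). Npc1 read 8.80, 8.74 and 8.84 in wild-type mice and 8.94, 9.05 and 8.74 in eIF2α+/S51A mice, beside the values given above for the other groups. Naglu (0.65 and 0.32; interaction -0.33 ± 0.18) and Gaa (0.22 and -0.04; interaction -0.26 ± 0.15) followed, and Gaa read 10.61, 10.73 and 10.75 in 5xFAD mice and 10.67, 10.47 and 10.73 in 5xFAD;eIF2α+/S51A mice. The intervals of 34 of 36 members lay within 1.6-fold, and those of Lipa and Naglu reached to -0.73 and -0.71.

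Over all 12 mice, 6 with the allele against 6 without, no member was called, nor any gene (0%), and the median was 0.00 over the members and -0.01 over all genes. No member had an unadjusted p under 0.05, as 1.49% of all genes had on the higher and 0.994% on the lower side, or groups that did not overlap, as 0.0389% and 0.0278% had. Arsa had the smallest p. It read 7.59, 7.63 and 7.60 in wild-type, 7.71, 7.78 and 7.88 in 5xFAD, 7.57, 7.55 and 7.44 in eIF2α+/S51A and 7.71, 7.73 and 7.71 in 5xFAD;eIF2α+/S51A mice, and the allele difference was -0.08 ± 0.05 (adjusted p = 1.0, limma, as for every member). Tpp1 read 9.53, 9.38 and 9.36, then 9.73, 9.82 and 9.68, then 9.57, 9.59 and 9.44, then 9.78, 9.73 and 9.85 in the same order of groups, an allele difference of 0.08 ± 0.06. Sgsh read 7.25, 7.20 and 7.27, then 7.38, 7.33 and 7.17, then 7.55, 7.32 and 7.12, then 7.21, 7.47 and 7.55, a difference of 0.10 ± 0.08. For all 3 genes the mice with and without the allele overlapped. The 95% interval of every member lay within 0.345 of 0 on the log2 scale.

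Other genes of the lysosome were read beside the members. Of 12 cathepsins and cystatins, 6 were called higher in both transgene comparisons (Ctsd, Ctsh, Ctsl, Ctss, Ctsz and Cst7), with medians of 0.86 and 0.68 over the 12. Cst7, the gene of the cathepsin inhibitor cystatin F, had the largest difference, at 5.43 to 5.87 in the 6 mice without the transgenes and 10.12 to 11.17 in the 6 with them. Ctsd, the aspartic protease cathepsin D, was higher by 1.56 and 1.30, and Ctss, a cysteine protease of phagocytes, by 1.77 and 1.61. Of 44 further lysosomal genes 35 were tested, and Cd68, Pld4 and Tcirg1 were called in 5xFAD mice and Cd68 and Pld4 in 5xFAD;eIF2α+/S51A mice, with medians of 0.13 and 0.02 over the 35. Cd68, a membrane protein of phagocyte lysosomes, was 6.55 to 6.81 without and 8.70 to 9.16 with the transgenes. Of 18 tested genes on a list for the vacuolar ATPase, the proton pump that keeps lysosomes acidic, none was called. The medians over these 18 were 0.02 and -0.03. Tcirg1, called in 5xFAD mice, also encodes a subunit of this pump but was counted among the further lysosomal genes. With 6 mice a side, 2 of the 18 had an unadjusted p under 0.05 (limma), as had 2185 of all 18007 genes.

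**Figure D4:**
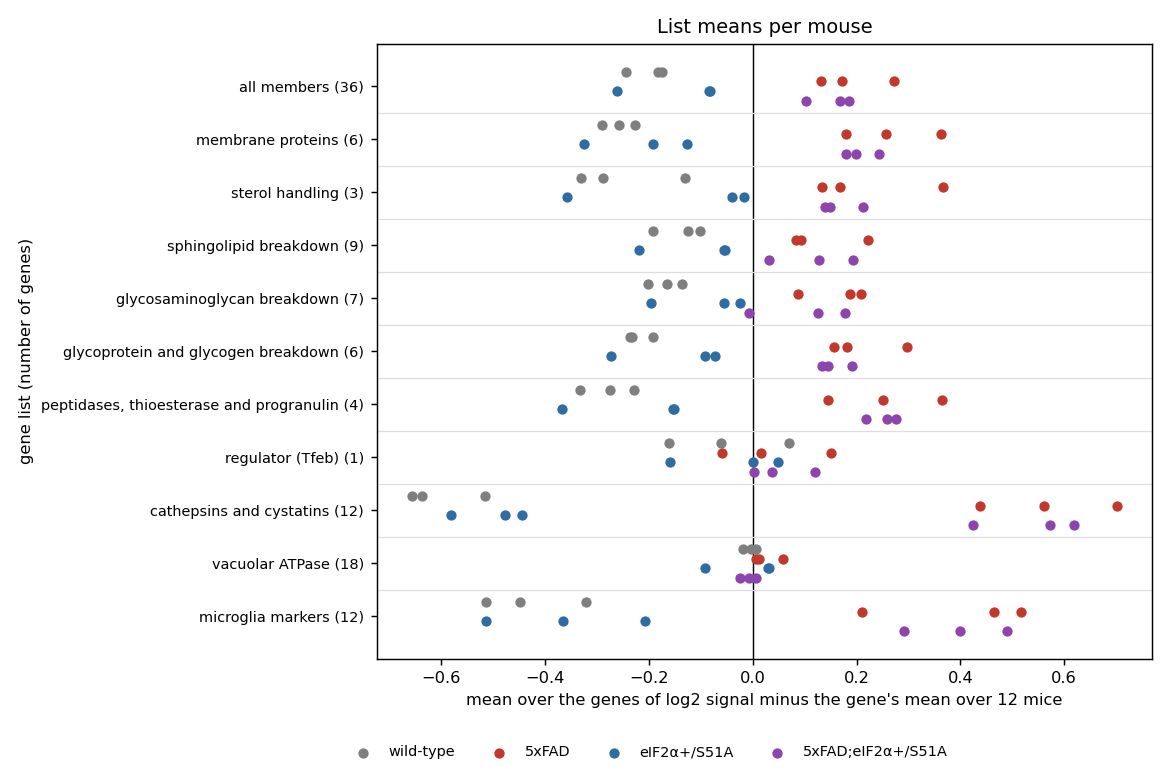
Mean over the genes of a list of the log2 signal minus the gene's own mean over 12 mice (horizontal axis), for each mouse (points, coloured by genotype), with the number of genes in brackets. For all members together and for each class apart from Tfeb the 6 transgenic mice lie to the right of the 6 others, less far apart than for the cathepsins and cystatins and for the microglia markers, and the vacuolar ATPase genes stay within 0.1 of 0 in all 12 mice.

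Markers of cell types moved with the transgenes too. All 12 markers of microglia had a difference above 0 in both comparisons, 8 and 5 of them were called, and their medians were 0.84 and 0.78. Their mean per mouse was -0.51 to -0.32 in wild-type, 0.21 to 0.52 in 5xFAD, -0.51 to -0.21 in eIF2α+/S51A and 0.29 to 0.49 in 5xFAD;eIF2α+/S51A mice, so they separated the same 6 mice as the members did. The differences of Laptm5, 1.50 and 1.40, were above those of every microglia marker, which ran from 0.49 to 1.15 and from 0.42 to 1.07. Those of Gusb, Man2b1, Hexa, Grn and Lgmn, from 0.70 to 1.10 and from 0.71 to 0.94, lay within these ranges. Of 12 blood leukocyte markers 7 could be tested, none was called, and their means overlapped between all groups, from -0.16 to 0.17. Of 10 astrocyte markers, Gfap was called in both comparisons and Aqp4 in the second, with medians of 0.33 and 0.30. Their mean per mouse was 0.07 to 0.38 in the transgenic mice and -0.32 to -0.19 in the others, so they separated the same 6 mice too. The part of these cells in the differences of the members was not tested.

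The 9 oligodendrocyte markers tested gave no call, but their medians were 0.44 in 5xFAD relative to wild-type mice and 0.02 in 5xFAD;eIF2α+/S51A relative to eIF2α+/S51A mice. Neuronal and endothelial markers gave no call, with medians between -0.11 and -0.01. The choroid plexus markers had medians of 0.31 and -0.73, with means of 0.26 to 0.96 in the 3 eIF2α+/S51A mice and of -1.35 to 1.07 in the others, where each group held mice above and mice below 0. With the mean of these markers as a covariate, 5, 6 and 6 members were called in 5xFAD relative to wild-type mice, in 5xFAD;eIF2α+/S51A relative to eIF2α+/S51A mice and with 6 mice a side: Lgmn lost its call in the first, and Hexa lost its call and Npc2 gained one in the second. Of all genes, 166, 216 and 234 were called with this covariate.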

How the data were processed

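The values deposited by the authors are log2 signals of exon probe sets. Expression Console and RMA are named in the submitters' processing notes, the Affymetrix Exon Array Computational Tool in the design text, and GeneSpring GX with GC-RMA in the methods. Which of these made the values was not settled, and the genome build is not given in the sources used here. Gene symbols came from the annotation of the platform, with old symbols updated through RefSeq gene names (GRCm38.p6); Tfeb was found under an older symbol. Of 321091 probe sets with 1 symbol, 76.0% lay at or above the median of the table (5.40) and were kept. A gene's value came from median polish over its kept probe sets, of which it needed at least 2.

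limma 3.58.1 in R 4.3.3 fitted a mean per genotype over 12 arrays (8 residual degrees of freedom), with Benjamini-Hochberg adjustment over 18007 genes. The fit was checked on simulated data. Promoters were read with Python 3.11.15 and figures drawn with matplotlib 3.10.9. The labels do not say more of the samples than tissue, genotype and replicate number. The p-values set a difference between groups against the spread between these mice within their groups. The members, lists, tests and alternatives were chosen with earlier results of these data known, and no p is given for the list. Values in every mouse are given for called members, for the member with the smallest p in each class with none called, for Tfeb and the X-linked members, and for the 3 members with the smallest p in each comparison of the allele, in the mice compared; Cln3 and Ctsa were added after their values were seen. Alternatives were the mean or median of the probe sets, other filters and normalizations, and fits of only the arrays compared. Others were a replicate block, covariates, array weights, other thresholds, single probe sets, and leaving out arrays in turn. 1 item of the mouse model's description is not reported here.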

Additional observations from a re-analysis of the deposited data

How the results depend on the processing

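With 3 mice a group, a member's 95% interval had a median reach of 0.23 to either side on the log2 scale. None of the genes followed by name under the alternatives changed direction. Laptm5, Gusb, Man2b1 and Grn kept their calls at the gene level in both transgene comparisons and with 6 mice a side under each alternative that kept the fold threshold, including each mouse left out in turn. In 5xFAD relative to wild-type mice, 10 members passed at an adjusted p under 0.02 and 10 under 0.05 without the fold threshold, and 2 (Laptm5 and Grn) when at least 50% of a member's probe sets had to be called one by one. In 5xFAD;eIF2α+/S51A relative to eIF2α+/S51A mice the probe sets one by one also left 2, again Laptm5 and Grn. With 6 mice a side, 11 and 12 members passed without the fold threshold. Leaving out 1 mouse gave 4 to 8 members in 5xFAD relative to wild-type mice, 4 to 6 in 5xFAD;eIF2α+/S51A relative to eIF2α+/S51A mice, 5 to 6 with 6 mice a side, and 0 in the comparisons of the allele. In the 3 comparisons of the transgenes, 108 to 178, 122 to 179 and 185 to 240 of all genes were then called. The medians over the members then ranged from 0.23 to 0.33, from 0.15 to 0.22 and from 0.19 to 0.26. For 5xFAD;eIF2α+/S51A relative to 5xFAD mice they ranged from -0.07 to 0.00, for eIF2α+/S51A relative to wild-type mice from 0.02 to 0.10, for the interaction from -0.14 to -0.05 and for the allele over 12 mice from -0.02 to 0.04. Apart from mice left out, the call of Lgmn was lost under 6 alternatives in 5xFAD relative to wild-type mice (adjusted p from 0.0197 to 0.0434) and under 2 in the mice with the allele, and that of Hexa under 6 in the mice with the allele (adjusted p up to 0.0981), while Npc2 gained a call in both with probe sets above the 75th percentile of signal. With array weights the median for eIF2α+/S51A relative to wild-type mice was 0.13. The calls over all genes in 5xFAD relative to wild-type mice fell from 174 to 108 without 5xFAD mouse 2 and to 113 without wild-type mouse 2. Mice of different groups share only a replicate number: the correlation of their deviations from the group means ran from -0.32 to 0.32 for equal numbers and from -0.45 to 0.44 for unequal ones, and with the replicate number as a block 5, 6 and 6 members were called (Lgmn lost its call in 5xFAD relative to wild-type mice, adjusted p = 0.0201). Of all genes, 164, 165 and 216 were called with this block.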

Other observations

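Each member was measured by 6 to 35 probe sets, and these were also tested one by one. Comparing 5xFAD with wild-type mice, 42 of the 641 members' probe sets were called higher (6.55%) and none lower, against 0.282% of all probe sets. In 5xFAD;eIF2α+/S51A relative to eIF2α+/S51A mice 32 were called (4.99%), against 0.263%, and 31 of them were among the first 42. With 6 mice a side 90 were called (14%), against 0.802%. Man2b1 had 24 of 35 called, Grn 15 of 18, Gusb 12 of 19, Laptm5 12 of 18, Hexa 9 of 16, Lgmn 8 of 17, Ctsa 5 of 20, Npc2 4 of 11 and Naglu 1 of 9. The difference was above 0 in 18 of 18 probe sets of Grn and in 16 of 18 of Laptm5, whose lowest and highest were -0.25 and 2.09. In 5xFAD relative to wild-type mice, the probe sets of Tfeb ranged from -1.06 to 0.34 with a median of 0.09, and none was called.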
